A study of Homo sapiens with 2 samples.

Results

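Tubulin isotype genes encode the alpha, beta and gamma tubulins, and 10 of them (TUBA1A, TUBA1B, TUBA1C, TUBB, TUBB2A, TUBB2B, TUBB3, TUBB4B, TUBB6 and TUBG1) were taken by symbol from the annotated GRCh37 gene set. Each symbol matched 1 row, so that 10 of the 57736 genes in the RNA-Seq tables are described, 3 of them alpha, 6 beta and 1 gamma. The samples were 2 libraries of poly(A)+ RNA from untreated wild-type HEK293T cells, a line of human embryonic kidney origin with the large T antigen of SV40. Cells were grown in DMEM medium with 10% fetal bovine serum at 37°C in 5% CO2 to 80% confluency, and reads were 50 bases long. The libraries formed 1 group and held 10593491 and 10104118 estimated counts (reads per gene, where a read that fits several genes is divided among them). The labels do not say whether the replicates came from separate cultures, so every test below measures the spread between these 2 libraries, and no condition was compared with another. One cell line is described, and a level in bulk RNA cannot tell fewer cells from less RNA per cell.

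Alpha and beta tubulin pair into dimers that polymerize into the hollow microtubules of the cytoskeleton, the mitotic spindle and cilia. Gamma tubulin sits in a ring complex at the centrosome and starts new microtubules. Each class is encoded by several genes whose proteins, the isotypes, are nearly identical in the core and differ mostly in an acidic tail at the carboxyl end, which is exposed on the microtubule surface and carries many of the modifications. TUBA1A, TUBB2B and TUBB3 are best known from developing neurons, whereas TUBA1B, TUBA1C, TUBB and TUBB4B are used widely.

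The last 60 coding bases of the beta genes and TUBG1 are shown because they encode the tail, the part in which most isotypes differ. TUBB2A and TUBB2B encode the same tail, since their bases differ only in the last alanine codon and the stop codon. All sequences were read from GENCODE release 44 transcripts on GRCh37, from 5′ to 3′ on the strand of the gene. The capitals mark the stop codon. All lie in coding exons.
TUBB (chr6:30692115-30692174, plus strand): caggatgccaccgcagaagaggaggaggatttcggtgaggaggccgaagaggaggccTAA
TUBB2A (chr6:3154097-3154156, minus strand): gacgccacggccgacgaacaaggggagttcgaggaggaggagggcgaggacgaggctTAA
TUBB2B (chr6:3224985-3225044, minus strand): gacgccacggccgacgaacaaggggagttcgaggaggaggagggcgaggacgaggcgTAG
TUBB3 (chr16:90002153-90002212, plus strand): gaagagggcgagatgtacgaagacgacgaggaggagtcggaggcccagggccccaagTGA
TUBB4B (chr9:140137949-140138008, plus strand): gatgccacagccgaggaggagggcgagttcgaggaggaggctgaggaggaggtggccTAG
TUBB6 (chr18:12326070-12326129, plus strand): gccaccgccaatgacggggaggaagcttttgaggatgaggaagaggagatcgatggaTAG
TUBG1 (chr17:40767000-40767059, plus strand): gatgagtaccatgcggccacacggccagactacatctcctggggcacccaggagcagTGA
Of the 19 codons before the stop, GAA or GAG, which encode the acidic residue glutamate, made up 10 in TUBB4B, 9 in TUBB, 8 in TUBB2A, TUBB2B and TUBB3 and 7 in TUBB6. With the aspartate codons GAC and GAT added, the beta genes all had 10 or 11 acidic codons. TUBG1 had 2 glutamate codons and 4 acidic codons in all.

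The coding sequences show which of these genes a short read can tell apart. Identity over the aligned coding sequence was 97.2% for TUBA1A and TUBA1B, 96.8% for TUBA1B and TUBA1C and 95.9% for TUBA1A and TUBA1C. Among the beta genes it was 98.1% for TUBB2A and TUBB2B and lay between 80.9% and 87.7% for every other pair. The longest run of bases shared by all 3 alpha genes was 140, from coding base 1 to 140. In TUBB2A and TUBB2B it was 725, from coding base 610 to 1334, which is longer than a read many times over. A stretch of 60 bases in which this closest pair does differ is shown for contrast, with the differing positions in capitals. Coding bases 169 to 228 hold 7 of the positions at which TUBB2A and TUBB2B differ.
TUBB2A (chr6:3155908-3155967, minus strand): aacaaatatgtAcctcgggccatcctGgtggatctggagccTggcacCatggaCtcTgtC
TUBB2B (chr6:3226442-3226501, minus strand): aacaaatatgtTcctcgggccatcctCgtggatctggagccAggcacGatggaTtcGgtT

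All 10 genes were detected, that is, had at least 1 TPM in both replicates (TPM is the share of transcripts, corrected for length and scaled to the same sum in each library), against 27.7% of all genes and 63.6% of protein-coding genes. Their levels covered a range of 184 ± 12.5 times (SD, n = 2) from TUBB3 to TUBA1B, or 119 ± 2.49 times by posterior mean TPM (an average over the possible divisions of shared reads), and a single gene led each of the alpha and beta classes. TUBA1B (chr12:49521565-49525180, minus strand) encodes an alpha tubulin of most dividing cells and had 1171.74 TPM in replicate 1 and 1252.52 TPM in replicate 2, a mean of 1212 ± 57.1 (SD, n = 2). TUBA1C (chr12:49582519-49668383, plus strand), the second alpha gene, had 489.73 and 516.36 TPM, with a mean of 503 ± 18.8 (SD, n = 2). TUBA1A (chr12:49578469-49582863, minus strand), the alpha gene mutated in lissencephaly, had 112.86 and 100.87 TPM, with a mean of 107 ± 8.48 (SD, n = 2). The 3 alpha genes did not overlap in either replicate. TUBA1B stood 2.41 ± 0.0234 times above TUBA1C and 11.4 ± 1.44 times above TUBA1A on the TPM scale (SD, n = 2).

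Among the beta genes, TUBB (chr6:30685212-30693315, plus strand), the main beta tubulin of many cell lines, had 1164.40 TPM in replicate 1 and 1154.90 TPM in replicate 2, a mean of 1160 ± 6.72 (SD, n = 2). TUBB4B (chr9:140135739-140138159, plus strand), a widely expressed beta gene that is also used in cilia, had 400.47 and 383.51 TPM and a mean of 392 ± 11.99 (SD, n = 2). TUBB was therefore 2.96 ± 0.0734 times as high as TUBB4B in TPM (SD, n = 2). The 3 genes TUBB6, TUBB2B and TUBB2A lay close together. TUBB6 (chr18:12307668-12344319, plus strand), a divergent beta isotype, had 58.34 and 55.22 TPM. TUBB2B (chr6:3223558-3231964, minus strand), linked to polymicrogyria, had 53.94 and 54.63 TPM, and its neighbour TUBB2A (chr6:3153731-3157778, minus strand) had 47.77 and 50.40 TPM. TUBB3 (chr16:89987800-90005169, plus strand), the beta tubulin used as a neuronal marker, was the lowest with 6.67 and 6.48 TPM, and TUBB exceeded it 176 ± 2.58 times by TPM and 114 ± 3.58 times by posterior mean TPM (SD, n = 2). TUBG1 (chr17:40761659-40767256, plus strand), the gamma tubulin of dividing cells, had 146.19 and 148.19 TPM and a mean of 147 ± 1.41 (SD, n = 2), between TUBB4B and TUBA1A.

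**Figure D1:**
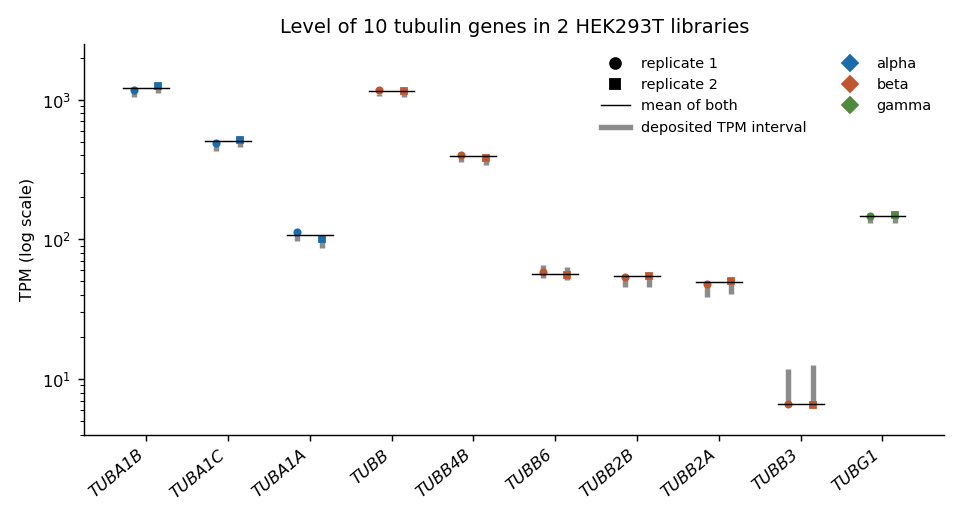
TPM of each tubulin gene on a log axis, grouped by class and ordered by mean; circles are replicate 1, squares replicate 2, thin lines their mean and grey bars the TPM interval that the authors deposited for each library. TUBA1B and TUBB lie highest, between 1155 and 1253 TPM, TUBB3 lies below 7 TPM, and its points sit just below their intervals.

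In order of mean TPM the genes were TUBA1B, TUBB, TUBA1C, TUBB4B, TUBG1, TUBA1A, TUBB6, TUBB2B, TUBB2A and TUBB3. For all 9 neighbouring pairs the values of the replicates did not overlap. With 2 against 2 values an exact permutation test cannot give a p below 0.333, so no pair can be called different by such a test. The intervals deposited beside the TPM covered more than the uncertainty of dividing reads. For TUBB6 in replicate 1 that uncertainty was 0.889% of the count, but the interval ran from 52.4 to 65.3 TPM. These intervals were apart in both libraries for 6 of the 9 pairs. They were apart in only 1 library for TUBA1B and TUBB, whose mean TPM differed 1.05-fold. They overlapped in both libraries for TUBB6 and TUBB2B and for TUBB2B and TUBB2A, so the order within that trio was not resolved. The sources used here do not give the probability level of these intervals. They are centred on another estimate, the posterior mean TPM, and the TPM of 5 members (TUBA1B, TUBA1C, TUBB, TUBB4B and TUBG1) lay above their own interval and that of TUBB3 below it in each library. For TUBB3 the posterior mean was 9.24 and 9.56 TPM, against the 6.67 and 6.48 TPM of the main estimate.

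The genes of like level give a scale for these numbers. Nearest to TUBA1B in log2(mean TPM + 1) over the 2 libraries were the ribosomal protein genes RPL18 at 1213 ± 27.4 TPM and RPL3 at 1208 ± 17.6 TPM (SD, n = 2). TUBB stood beside 2 further ribosomal protein genes, RPL37 at 1159 ± 47.2 TPM and RPL36 at 1162 ± 35.5 TPM (SD, n = 2). Nearest to TUBG1 were NUP205, a nuclear pore protein, at 147 ± 2.48 TPM and RTN3, a reticulon of the endoplasmic reticulum, at 147 ± 2.93 TPM (SD, n = 2). Among protein-coding genes TUBA1B ranked 66, TUBB 72, TUBA1C 166, TUBB4B 219 and TUBG1 790, while TUBB3 ranked 9697.

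The study design allows the make-up of the tubulin message pool to be read in each library. The 10 genes together held 0.365% of all TPM in replicate 1 and 0.372% in replicate 2. The alpha genes summed to 1774 and 1870 TPM and the beta genes to 1732 and 1705 TPM. The ratio of alpha to beta was thus 1.02 and 1.10, a mean of 1.06 ± 0.0508 (SD, n = 2), so that the classes were nearly even on the scale of transcripts. In estimated counts, which are not corrected for length, the ratio was 0.563 and 0.625. The effective length that TPM corrects for was 2549 and 2426 nt for TUBB but 1195 and 1214 nt for TUBA1B. TUBG1 was lower than either class sum, by 12.4 ± 0.339 times for alpha and 11.7 ± 0.239 times for beta (SD, n = 2).

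Within the alpha class TUBA1B held 66.5% ± 0.672 of the TPM, TUBA1C 27.6% ± 0.0111 and TUBA1A 5.88% ± 0.683 (SD, n = 2). The beta class had a similar shape. TUBB held 67.5% ± 0.344 and TUBB4B 22.8% ± 0.45, followed by TUBB6 with 3.30% ± 0.0924, TUBB2B with 3.16% ± 0.0628, TUBB2A with 2.86% ± 0.139 and TUBB3 with 0.383% ± 0.00365 (SD, n = 2). These shares rest on how reads were divided among overlapping genes.

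A lncRNA gene, TUBA1B-AS1 (chr12:49521565-49582267, plus strand), runs against TUBA1B, and 1309 of its 1632 exonic bases (80.2%) lie in exons of TUBA1B on the opposite strand. It was listed at 1327.87 TPM in replicate 1 and 1155.47 TPM in replicate 2, as high as TUBA1B itself. Its estimated counts were 8372 and 7027, with posterior SDs (the uncertainty of the division of reads, in counts) of 129 and 124. TUBA1B had 10449 and 10917 counts. The library kit, as the labels name it, is not the directional version, and a strand setting of the counting is not stated in these sources. Without strand, reads from TUBA1B and from TUBA1B-AS1 cannot be told apart in the shared exons, so the level of TUBA1B is uncertain in this direction.

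If all counts of TUBA1B-AS1 had belonged to TUBA1B, the level of TUBA1B would have been 2111 and 2059 TPM, that is 1.80 and 1.64 times its deposited TPM. TUBB has a smaller partner of the same kind. ENSG00000272540, a lncRNA gene of 773 bases (chr6:30690882-30691654, minus strand), shares 538 bases with exons of TUBB and was listed at 214.39 and 283.42 TPM, with 1159 and 1476 counts and posterior SDs of 91.4 and 93.1. With its counts added, TUBB would have been at 1225 and 1240 TPM, 1.05 and 1.07 times the deposited value. With both additions the ratio of alpha to beta was 1.514 and 1.495, the share of TUBA1B in the alpha class was 77.4% ± 0.605 and that of TUBB in the beta class 68.8% ± 0.636 (SD, n = 2). This alternative was added after the data were seen. For these overlaps it gives the highest levels of TUBA1B and TUBB that the deposited counts allow. It is not the far end for the ratio of alpha to beta, which the addition to TUBB lowers. The opposite case, with counts moved away from TUBA1B and TUBB, was not computed. With the additions TUBA1B stood 317 ± 0.899 times above TUBB3 (SD, n = 2). The order of the 10 genes was the same with the additions.

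**Figure D2:**
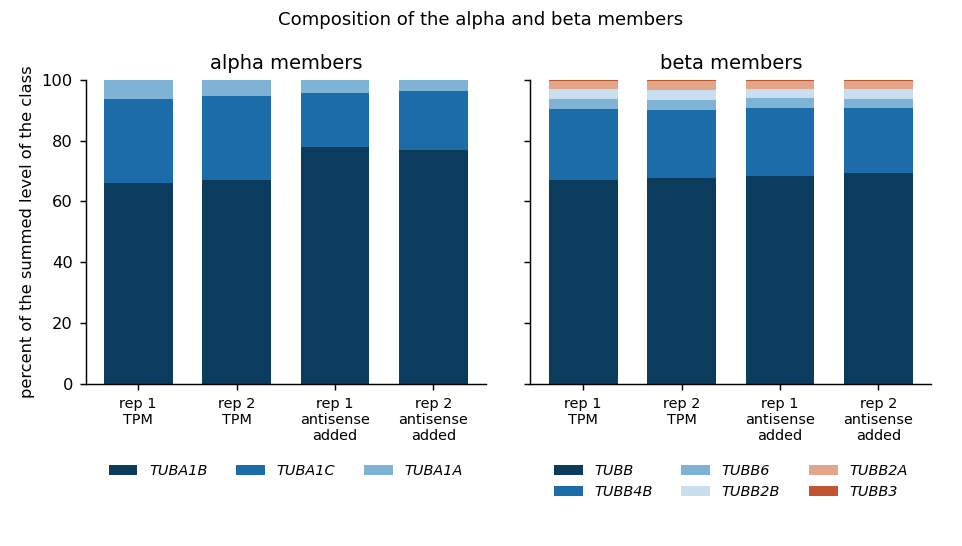
Stacked bars of the percent of the summed level of the alpha members (left) and beta members (right) held by each gene, per replicate, from the deposited TPM and with the counts of the overlapping antisense genes added to TUBA1B and TUBB. The share of TUBA1B is near 66% to 67% by deposited TPM and near 77% to 78% with the added counts, while that of TUBB is 67.2% to 69.3% in all 4 bars.

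Other members overlapped genes too. TUBA1A and TUBA1C lie head to head and share 345 exonic bases on opposite strands. A second lncRNA gene, ENSG00000258232, runs against TUBA1C with 666 of its 680 exonic bases (97.9%) in TUBA1C exons, but was listed at 0 in both replicates. Its posterior SD was 3.7 counts in each. TUBB3 shares 1584 exonic bases with ENSG00000198211 on the same strand, a protein-coding readthrough gene that had 15.08 and 38.25 counts with posterior SDs of 11.4 and 16.1. TUBB3 had 88.41 and 76.22 counts beside it. TUBB6 overlaps AFG3L2, a mitochondrial protease gene, over 837 bases, TUBB2B overlaps the proteasome chaperone gene PSMG4 over 174, TUBG1 overlaps RETREG3 over 144 and TUBB4B overlaps FAM166A over 124, in each case on the opposite strand.

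To see how much of each gene a read can identify, all 50-base windows of 1 transcript per gene were compared with every other deposited gene that the annotation holds, on both strands. The share of windows also found elsewhere was 92.8% in TUBB3, 87.1% in TUBA1B, 64.6% in TUBB2A, 54.9% in TUBB2B, 50.6% in TUBA1A, 42.7% in TUBA1C, 32.7% in TUBB, 30.0% in TUBG1, 15.3% in TUBB4B and 1.09% in TUBB6. The partners differed by gene. TUBB shared no window with another member, and its shared windows were found in ENSG00000272540 (19.9% of all its windows), in pseudogenes, mainly TUBBP1 (17.1%), and in the protein-coding gene SCP2 (0.406%). TUBB2A and TUBB2B shared 933 windows with each other. TUBB3 shared 92.8% of its windows with ENSG00000198211, TUBA1B shared 68.7% with TUBA1B-AS1, 38.6% with TUBA1A and 37.2% with TUBA1C, and TUBG1 shared 29.1% with TUBG2. The windows of TUBA1C found nowhere else, 1590 of 2774, lay mostly beyond its coding part, where 5.43% of windows were shared against 84.9% inside it.

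**Figure D3:**
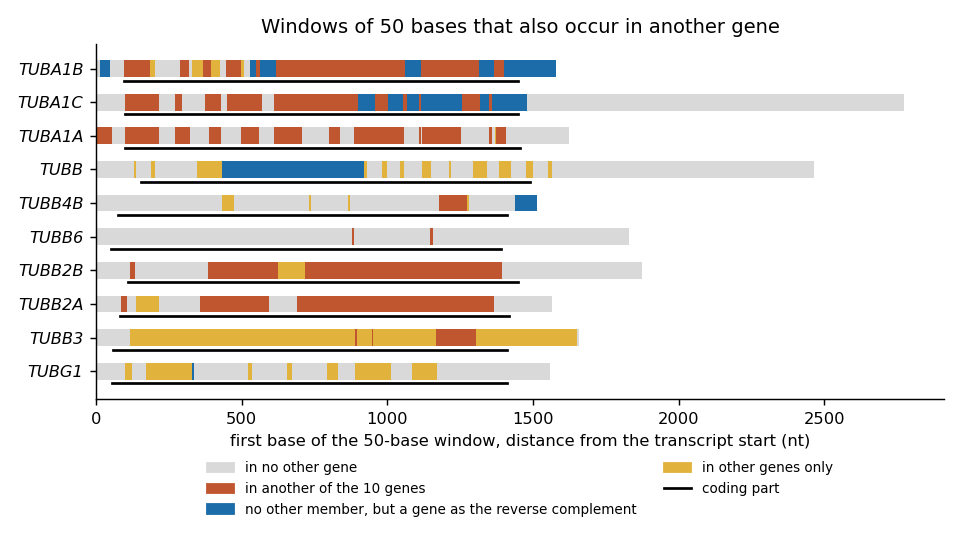
Each bar is 1 transcript of a tubulin gene, drawn by the distance of a 50-base window from the transcript start in nt; colours give where else the window occurs and the black line marks the coding part. TUBA1B and TUBB3 are coloured over most of their length and TUBB6 is almost entirely grey.

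The posterior SD was above 0 in all 10 genes, whereas it was 0 in 44.2% and 45.3% of detected genes. In percent of the estimated count it was 10.01% and 15.01% for TUBB3, 4.67% and 4.84% for TUBB2A, 3.26% and 3.42% for TUBB2B and 2.81% and 3.12% for TUBA1A. TUBA1C had 1.58% and 1.64%, TUBA1B 1.12% and 1.11% and TUBB6 0.889% and 1.07%. TUBB had 0.414% and 0.462%, TUBG1 0.296% and 0.339% and TUBB4B 0.213% and 0.225%. The median over detected genes was 0.0519% and 0.0444%, and 60.1% to 91.3% of detected genes had a lower value than the single members in replicate 1. Across the 10 genes the mean percent was higher at a higher share of windows found elsewhere, with Pearson's r of 0.677 and Spearman's rho of 0.806. These describe 10 genes that come from the same 2 libraries and partly share reads, and no p is attached. The percent also depends on the count it is taken of, and TUBB3 and TUBB2A, highest in percent, had the fewest counts. The part of the count and that of shared windows were not separated. TUBA1B had the second highest share of shared windows but a lower percent than TUBA1A, TUBA1C, TUBB2A and TUBB2B, at the highest count of the alpha genes.

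**Figure D4:**
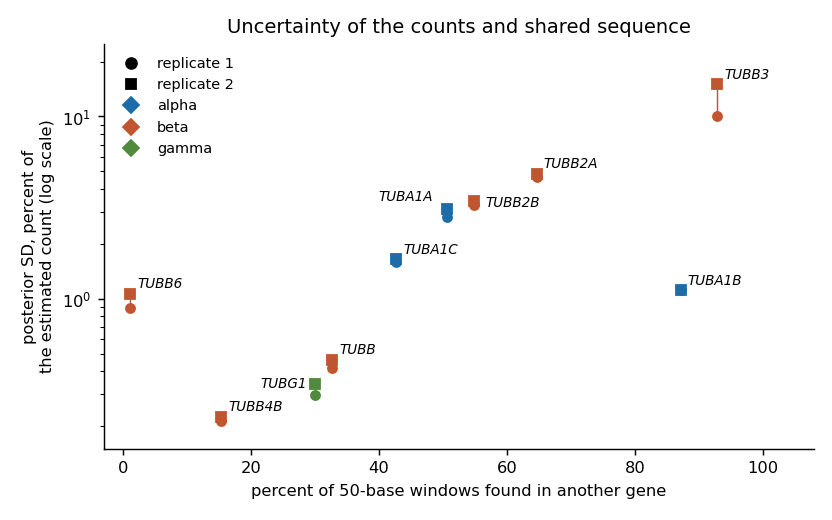
Posterior SD of the count as a percent of the count (log axis) against the percent of 50-base windows found in another gene, for 10 tubulin genes; circles are replicate 1 and squares replicate 2. TUBB3 lies highest at 10.01% and 15.01%, TUBB4B lowest, and TUBA1B lies below the other genes with many shared windows.

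The libraries were then compared for each gene. On the log2(TPM + 1) scale the members differed between replicates by -0.16 (TUBA1A) to 0.10 (TUBA1B), replicate 2 minus replicate 1, and 5 were higher in each replicate. Their median absolute difference was 0.07, against 0.14 over the 15997 detected genes, and the spread of all genes was smaller at high levels, with an SD of 0.39 from 1 to 5 TPM, 0.13 from 100 to 500 TPM and 0.14 above 500 TPM. At the levels of the members other than TUBB3 the median absolute difference of all genes was 0.11 from 20 to 100 TPM, 0.08 from 100 to 500 TPM and 0.07 above 500 TPM, close to that of the members. The exact two-sided binomial test used here compares 1 library with 1 library and allows for counting error only, although reads amplified by PCR and divided among genes are not independent molecules. Run on rounded counts, with Benjamini-Hochberg adjustment over 17920 genes, it called 3.88% of all genes and 2 of the 10 members. Among genes with 1000 or more counts in the 2 libraries together, where small differences can pass, it called 6.76%. Of all genes, 2.14% were called higher in replicate 2 and 1.74% higher in replicate 1. TUBA1B was higher in replicate 2 (log2 ratio of counts 0.14, adjusted p = 2.41e-10, exact binomial test) and TUBB was higher in replicate 1 (log2 ratio -0.06, adjusted p = 0.0015, exact binomial test). The remaining 8 genes had adjusted p-values from 0.302 to 1.0 in the exact binomial test. When a common dispersion, estimated from the same 2 libraries, was allowed for by edgeR's exact test, which called 1.21% of all genes, neither TUBA1B nor TUBB passed (adjusted p = 1.0 for both).

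Both calls belonged to genes with an antisense partner, and both partners differed the other way. Such an overlap did not set these genes apart. TUBA1A, TUBA1C, TUBB2B, TUBB4B, TUBB6 and TUBG1 also overlap a gene on the opposite strand and were not called. RETREG3, which overlaps TUBG1, was itself higher in replicate 1 (log2 ratio -0.28, adjusted p = 0.0293, exact binomial test). TUBA1B-AS1 was higher in replicate 1 (log2 ratio -0.17, adjusted p = 2.11e-11, exact binomial test) and ENSG00000272540 was higher in replicate 2 (log2 ratio 0.43, adjusted p = 1.31e-11, exact binomial test). The counts of TUBA1B and TUBA1B-AS1 summed to 18821 and 17944, a log2 ratio of 0.01 after scaling. Those of TUBB and ENSG00000272540 summed to 23297 and 21598, a log2 ratio of -0.03. The ratio of a sum always lies between those of its genes, and these genes differed in opposite directions. The log2 ratios of the sums are therefore no test of how reads were divided. TUBB3 and ENSG00000198211 share reads on the same strand. ENSG00000198211 was higher in replicate 2 (log2 ratio 1.39, adjusted p = 0.0269, exact binomial test), and its sum with TUBB3, 103 and 114 counts, had a log2 ratio of 0.22 against -0.13 for TUBB3 alone. Whether reads were divided differently in the 2 libraries was not tested.

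**Figure D5:**
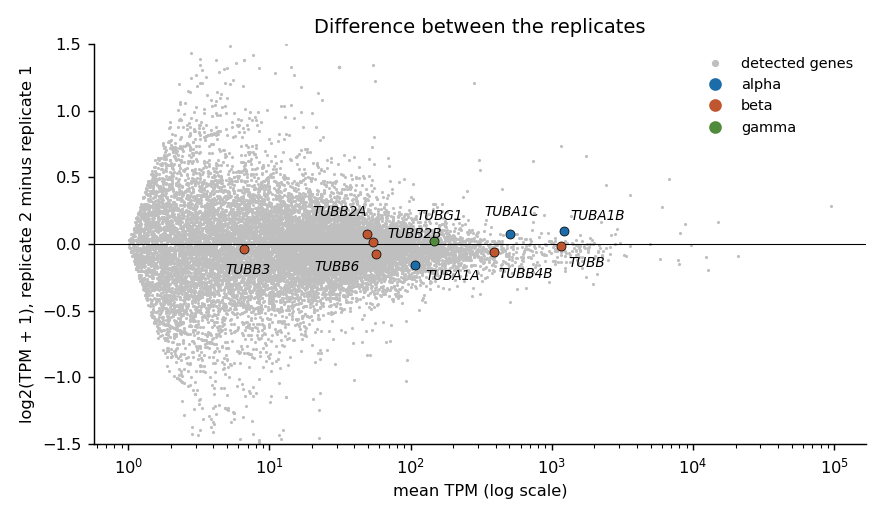
Difference between the replicates in log2(TPM + 1), replicate 2 minus replicate 1, against mean TPM on a log axis; grey points are detected genes, of which 54 lie outside the axis range, and coloured points are the tubulin genes by class. All 10 tubulin genes lie between -0.16 and 0.10.

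Of 12 other tubulin genes with a row, 6 were detected, at most at 39.1 TPM. TUBB4A, a beta gene of the brain, had 39.1 ± 0.346 TPM, so that TUBB4B was 10.0 ± 0.218 times higher (SD, n = 2). The epsilon and delta tubulins of centrioles, TUBE1 and TUBD1, had 26.72 TPM in both replicates and 20.84 and 18.82 TPM. TUBA4A had 6.86 and 7.37 TPM, TUBA8 had 4.91 and 5.65 TPM, and TUBG2, the second gamma gene, had 6.51 and 6.34 TPM, which TUBG1 exceeded 22.9 ± 0.649 times (SD, n = 2). TUBA3D (2.12 and 0.99 TPM) and TUBB1, the beta gene of platelets (0.51 and 0.62 TPM), were not detected by the threshold. TUBA3C, TUBA3E, TUBA4B and TUBAL3 were listed at 0 in both replicates, where up to 3 counts, or 0.283 and 0.297 CPM, could have been missed by counting error alone. The zeros also depend on the division of reads for TUBA3E, TUBA4B and TUBA3C. Their posterior SDs were 1.31 and 0.73, 0.41 and 0.47, and 0.21 and 0.31 counts. No gene of this list differed between the libraries in the exact binomial test with edgeR scaling, at an unadjusted p of 0.05 or by edgeR's exact test (0 of 8 tested). The share over all genes at an unadjusted p under 0.05 in the exact binomial test was 2377 of 17920.

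Tubulin pseudogenes took few reads. Of 50 with a row, 4 were detected and 35 were listed at 0 in both replicates, and all 50 summed to 25.2 and 22.6 TPM, or 0.690% and 0.607% of the TPM of the 10 genes. The highest were TUBBP5 with 9.77 and 10.32 TPM and TUBA5P with 5.15 and 5.71 TPM. TUBB8P2 (3.30 and 1.25 TPM), TUBB8P1 (1.97 and 1.23 TPM) and TUBG1P (1.35 and 0.65 TPM) followed.

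Genes that act on tubulin were examined by list. All 13 cofactor and prefoldin genes, most of which act in tubulin folding and dimer assembly, were detected. They were led by TBCA at 318 ± 43.4 TPM, PFDN5 at 196 ± 7.74 TPM and PFDN2 at 112 ± 11.3 TPM (SD, n = 2). The lowest of them were TBCEL at 11.9 ± 3.56 TPM and TBCC at 16.6 ± 1.00 TPM (SD, n = 2). All 3 factors of tubulin mRNA decay, through which free tubulin shortens the life of its own messages, were also detected. CNOT11, a subunit of the CCR4-NOT deadenylase, had 87.8 ± 5.65 TPM, the adaptor SCAPER had 15.45 and 17.22 TPM, and TTC5, which binds the nascent tubulin chain, had 13.6 ± 1.52 TPM (SD, n = 2). No gene of these lists passed the exact binomial test, with 1 of 13 and 1 of 3 at an unadjusted p under 0.05 and 0 by edgeR's exact test. Over all genes, 2377 of 17920 had an unadjusted p under 0.05 in the exact binomial test.

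All 11 genes of the gamma-tubulin ring complex and its anchors were detected, at a median of 35.0 TPM against 147 TPM for TUBG1. MZT2B had 166 ± 4.07 TPM, MZT2A 92.7 ± 4.77 TPM and TUBGCP2 58.9 ± 0.0707 TPM (SD, n = 2). TUBGCP3 at 12.51 and 9.43 TPM and NEDD1 at 20.75 and 21.66 TPM were the lowest, and TUBG1 stood 13.7 ± 2.85 times above TUBGCP3 (SD, n = 2). The exact binomial test called 2 of the 11, against 3.88% of all genes and 6.76% of those with 1000 or more counts. MZT1 was higher in replicate 2 (23.70 and 31.30 TPM, log2 ratio of counts 0.42, adjusted p = 0.000858, exact binomial test). The anchor PCNT was higher in replicate 1 (47.73 and 35.37 TPM, log2 ratio of counts -0.15, adjusted p = 0.0499, exact binomial test). The test covers the counts, 2027 and 1735 for PCNT, and not the TPM. Neither gene passed edgeR's exact test.

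Of 20 tubulin-modifying enzymes 16 were detected. TTLL12 led with 102 ± 0.679 TPM, followed by the polyglutamylase TTLL4 with 82.6 ± 15.7 TPM and the deglutamylase AGBL5 with 58.6 ± 1.23 TPM (SD, n = 2). The lowest were TTLL6 with 0.08 and 0.06 TPM and AGBL4 with 0.10 and 0.21 TPM. Of 18 microtubule-associated and severing proteins 15 were detected, led by the dimer-binding stathmin STMN1 at 467 ± 12.3 TPM, CKAP5 at 124 ± 7.94 TPM and MAP4 at 118 ± 7.60 TPM (SD, n = 2). STMN2 and DCX, 2 of the neuronal members, were lowest, STMN2 listed at 0 and DCX at 0.06 and 0.11 TPM. Other neuronal members are named here after their values were seen. MAP1B at 28.14 and 27.35 TPM and MAPT at 12.22 and 7.70 TPM were detected, and MAP2 at 0.70 and 0.82 TPM was not. In each list no gene passed the exact binomial test or edgeR's exact test. At an unadjusted p under 0.05 in the exact binomial test there was 1 of 16 tested in each list, against 2377 of 17920 over all genes. The median mean TPM was 14.1 for the enzymes, 33.5 for the associated proteins and 127 for the 10 tubulin genes, against 14.7 over all detected genes.

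The tissue label of the cells was compared with markers. Of 12 markers of kidney epithelium 2 were detected, LRP2 at 8.28 and 9.96 TPM and PAX2 at 4.34 and 2.47 TPM, and AQP1 followed with 0.25 and 0.81 TPM. SLC34A1, SLC22A6, UMOD, AQP2 and CDH16 were listed at 0 in both replicates, so several defining genes of mature tubules had no counts. Of 12 neuronal markers 6 were detected, led by UCHL1 at 253 ± 3.36 TPM, INA at 22.4 ± 0.813 TPM and NEFM at 10.5 ± 0.820 TPM (SD, n = 2). The share detected, 6 of 12, stood against 63.6% of protein-coding genes. The median of this list was 0.918 TPM, and RBFOX3, GAP43 and SYN1, named here for their closeness to the threshold after their values were seen, passed it narrowly at means of 1.85, 1.17 and 1.08 TPM. ELAVL3 (0.03 and 0.00 TPM) and STMN2 (0 in both) were lowest. Beside these, TUBB3 at 6.67 and 6.48 TPM lay below UCHL1, INA and NEFM and above every other neuronal marker with a row. TUBB2B and TUBA1A lay above INA and NEFM and below UCHL1. Neither list held a gene that differed between the libraries in the exact binomial test or edgeR's exact test. At an unadjusted p under 0.05 in the exact binomial test there were 1 of 4 kidney genes tested and 0 of 7 neuronal genes tested. Over all genes it was 2377 of 17920.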

How the data were processed

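Poly(A)+ RNA from 2 HEK293T libraries was analysed. Per the submitters' processing notes the tools were Trimmomatic 0.36, STAR 2.6.1c and RSEM 1.3.1 with the hg19/GRCh37.p13 build, while the study's methods name featureCounts with Ensembl release 87; the columns are those of RSEM. The estimated counts were deposited by the authors without normalization, with reads that fit several genes divided among them. Both TPM and FPKM, made by the authors, correct the counts for length. Posterior SDs and TPM interval bounds are scores deposited by the authors. A table of reads pooled by the authors over both libraries was used as an alternative only.

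Symbols and coordinates came from GENCODE release 44 on GRCh37 (96.4% of 57736 rows matched). The 10 members and the gene lists were chosen with earlier results of these data known. Named were all members, other tubulin genes, the 5 highest pseudogenes, overlapping genes, the 2 protein-coding genes nearest in level to TUBA1B, TUBB and TUBG1, and, of each list, the 3 highest, the 2 lowest, those at 0 in both libraries and those that differed. TUBB8, TUBGCP5, AGBL1 and NEFL were not analysed here, and 1 listed gene and some coding sequences are not reported here.

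To compare the replicates, counts were rounded to whole numbers and tested against TMM-scaled library sizes (edgeR 4.0.16, R 4.3.3) by a two-sided exact binomial test (scipy 1.17.1). Benjamini-Hochberg adjustment covered all genes with 10 or more counts in sum, and ratios used 0.5 added counts. edgeR's exact test with a common dispersion (coefficient of variation 0.0454 over 14993 genes) was the alternative. Log2 TPM used a pseudocount of 1. Both tests were run on simulated counts. With counting error only, the binomial test called 166 of 200 genes changed 1.5-fold and 9 unchanged genes. That is the error the test assumes, so the simulation does not show how it behaves with more spread. Windows of 50 bases were compared over 182831 transcripts. Protein sequences were not used here.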

Additional observations from a re-analysis of the deposited data

How the results depend on the processing

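All 10 genes were detected at every threshold tried (TPM of 0.1 and 5, FPKM of 1, 10 estimated counts) and in either replicate alone, and the 9 neighbouring pairs had ranges apart under each of the length-corrected scales tried. The order was not computed in estimated counts. The ratio of alpha to beta, 1.06, was 0.594 in estimated counts and 1.504 with the antisense counts added, and 1.02 to 1.10 without single replicates. The share of TUBA1B within alpha, 66.5%, was 65.0% in estimated counts and 77.4% with the antisense counts added (66.0% to 67.0% without single replicates). The share of TUBB within beta, 67.5%, was 76.2% in estimated counts, 67.1% by posterior mean TPM, 66.0% over all beta genes, 66.9% with pseudogenes and 68.8% with the antisense counts added (67.2% to 67.7% without single replicates). The members' share of the library, 0.369% of TPM, was 0.442% of estimated counts and 0.529% of protein-coding TPM (0.365% to 0.372% without single replicates). The genes that differed between the libraries, 696 of 17920, were 448 with posterior mean counts and 217 by edgeR's exact test, the setting under which TUBA1B and TUBB no longer passed; the other 58 of 60 checks on single members kept their call. The median posterior SD of the members, 1.36% of the count, was 0.941% in the authors' pooled table, which holds more reads, and 1.35% to 1.38% without single replicates. The median absolute difference between replicates over all genes was 0.139 with the TPM filter and 0.0181 without it.

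Counting error and the division of reads limit TUBB3 most, at 88.4 and 76.2 counts. No paired analysis was possible because both libraries belong to 1 group.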

Other observations

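The authors' pooled table, made from the reads of both libraries, gave values for the tubulin genes that belong to no comparison above. TUBA1B was at 1214 TPM, TUBB at 1161 TPM, TUBA1C at 504 TPM, TUBB4B at 393 TPM, TUBG1 at 147 TPM and TUBA1A at 107 TPM. TUBB6, TUBB2B and TUBB2A were at 57.1, 54.4 and 49.2 TPM, and TUBB3 was at 6.34 TPM, below both of its single-library values.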
